A study of Mus musculus with 4 samples.

Results

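The serum amyloid A genes Saa1, Saa2, Saa3 and Saa4 were followed across the livers of 4 groups of female mice. They are the 4 genes of this name among the 35275 genes with a read count, chosen by symbol. Because Saa1 and Saa2 are near-identical copies, the sum of their reads was described beside each of them. All groups carried the amyloidogenic Apoa2c allele of apolipoprotein A-II. The paper names the strain R1.P1-Apoa2c, on a SAMR1 background, whereas the labels give AKR/J as the strain and an Apoa2c congenic genotype. The groups were VS (vehicle, sedentary), VI (vehicle, interval training, IT), FS (AApoAII fibril, sedentary) and FI (AApoAII fibril, IT). Fibril mice had received a single intravenous injection of AApoAII fibrils, which seeds deposition of the animals' own apolipoprotein A-II, and vehicle mice had received phosphate-buffered saline. IT was a treadmill protocol of alternating fast and slow running for 16 weeks, and livers were taken at 26 weeks of age. Liver tissue of 4 mice was pooled before RNA extraction in each group, so that 4 libraries, each from 4 of the 16 mice, were sequenced, and none of the values below carries a replicate error.

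Serum amyloid A proteins are small apolipoproteins of high-density lipoprotein (HDL). Saa1 and Saa2 encode the acute phase forms, which hepatocytes secrete in large amounts when interleukin-6, interleukin-1 and tumour necrosis factor act through STAT3, C/EBP and NF-κB factors. Saa3 encodes an inducible form made mainly outside hepatocytes, in macrophages and adipose tissue, and Saa4 encodes the constitutive form of the liver. Fragments of the acute phase forms build the fibrils of AA amyloidosis, a disease distinct from the AApoAII amyloidosis seeded here.

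The 4 genes lay side by side on chromosome 7 (mm10), within 42.32 kb. In the deposited annotation Saa3 (ENSMUSG00000040026) ran from 46711998 to 46715676, Saa4 (ENSMUSG00000040017) from 46728017 to 46732543 and Saa1 (ENSMUSG00000074115) from 46740501 to 46742980, all on the minus strand. Saa2 (ENSMUSG00000057465) ran from 46751833 to 46754314 on the plus strand, so that Saa1 and Saa2 pointed away from each other with their 5′ ends 8.853 kb apart. Each is a protein-coding gene whose transcript used here has 4 exons in GENCODE M21, an annotation of the same assembly. Exon 3 is wholly coding and has 139 bases in all 4 genes, which makes it a ruler for how far the copies differ. It lies at chr7:46741256-46741394 in Saa1, at chr7:46753418-46753556 in Saa2, at chr7:46712589-46712727 in Saa3 and at chr7:46730037-46730175 in Saa4. The exon is shown 5′ to 3′ on the strand of the gene, with every base that differs from Saa1 in capitals.
Saa1: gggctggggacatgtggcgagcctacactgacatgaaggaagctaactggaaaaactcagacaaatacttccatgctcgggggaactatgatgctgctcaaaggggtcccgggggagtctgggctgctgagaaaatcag
Saa2: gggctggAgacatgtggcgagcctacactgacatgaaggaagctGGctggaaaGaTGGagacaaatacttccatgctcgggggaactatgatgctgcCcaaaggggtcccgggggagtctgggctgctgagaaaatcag
Saa3: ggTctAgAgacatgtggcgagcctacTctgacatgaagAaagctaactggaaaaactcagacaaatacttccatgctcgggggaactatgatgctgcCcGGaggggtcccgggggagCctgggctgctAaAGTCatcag
Saa4: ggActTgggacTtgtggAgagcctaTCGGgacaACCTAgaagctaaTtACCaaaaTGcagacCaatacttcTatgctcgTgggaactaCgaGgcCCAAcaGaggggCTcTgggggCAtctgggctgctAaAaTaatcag

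Saa2 differed from Saa1 at 8 of these 139 bases, Saa3 at 14 and Saa4 at 37, which gives identities with Saa1 of 94.24%, 89.93% and 73.38%. Over the whole transcripts, Saa1 and Saa2 were identical in 93.92% of aligned positions. A read can be assigned to 1 of these copies only where it covers a difference. Of all stretches of 50 bases in the Saa1 transcript, 14.8% also occurred in another member, 74 of them in Saa2 and 9 in Saa3. Of those in the Saa2 transcript, 13.3% did, all in Saa1. For Saa3 the share was 1.78%, and no stretch of Saa4 was shared. No stretch of 100 or 150 bases was shared by any pair. The sources used here give neither the read length nor the treatment of reads that fit several places, so the split between Saa1 and Saa2 is less certain than their sum.

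The libraries held between 23442935 and 28814802 counted reads, and the 4 genes took between 0.0414% of them in VS and 0.384% in FI. Reads were scaled to the library totals with TMM factors between 0.9754 and 1.025 and are given as CPM, the usual unit of reads relative to library size. Intervals are 95% intervals, exact for levels and log2 ratios, Wilson intervals for shares and normal approximations for differences of log2 ratios. They cover counting error only, with reads taken as independent, and differences between mice or pools are not covered. Where reads do not count molecules independently, these intervals are too narrow. All 6 hepatocyte markers were present in every library. The VS library stood apart by its skeletal muscle transcripts, where 10 marker genes summed to 76.27 CPM, whereas VI held 9.852, FS 0.9823 and FI 0.8268 CPM. Ratios against VS are therefore given together with FI versus VI, which does not use it. With the muscle marker genes left out of the totals, which was chosen after seeing the data, every log2 ratio of the members kept its direction and its side of 2-fold. At 76.27 CPM in VS, these genes were too small a part of the total to move a ratio. This check thus cannot tell whether the VS pool differed in other ways.

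Saa1 and Saa2 were higher in both fibril livers than in their vehicle counterparts by more than 10-fold. Saa1 went from 708 reads in VS and 3768 in VI to 27904 in FS and 43613 in FI, which is 29.98 CPM (27.81 to 32.27), 154.7 CPM (149.8 to 159.7), 945.2 CPM (934.1 to 956.3) and 1803 CPM (1786 to 1820). Saa2 had 235, 1244, 15449 and 28157 reads in the same order, which is 9.951 CPM (8.72 to 11.31), 51.06 CPM (48.27 to 53.98), 523.3 CPM (515.1 to 531.6) and 1164 CPM (1150 to 1178). Both genes were lowest in VS, then VI, then FS and highest in FI, with no overlap of the counting intervals. By CPM, Saa1 went from rank 3700 of all genes in VS to rank 65 in FI and Saa2 from rank 7121 to rank 100. In these bulk samples, a change in the number of producing cells and a change in RNA per cell cannot be told apart.

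**Figure D1:**
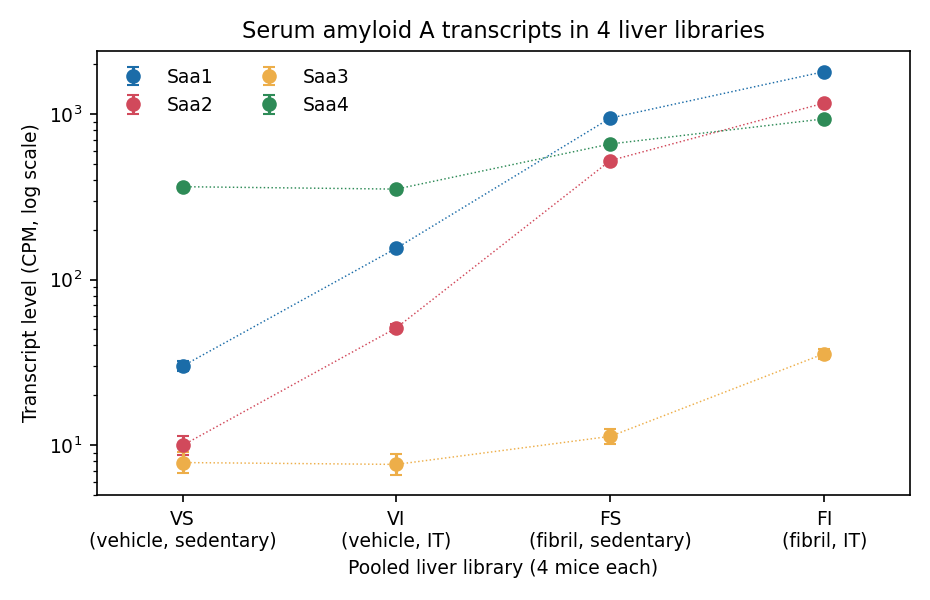
Transcript level of the 4 serum amyloid A genes in each pooled liver library, in CPM on a log scale, with exact Poisson 95% intervals as bars (counting error only). The dotted lines only join the points of 1 gene. Saa1 and Saa2 are higher in each library from VS to VI, FS and FI, Saa3 stands out only in FI at 35.63 CPM, and Saa4 lies between 351.7 and 934.6 CPM.

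In the sedentary pair, FS versus VS, the log2 ratio was 4.98 (4.87 to 5.09) for Saa1, a 31.5-fold difference. For Saa2 it was 5.71 (5.53 to 5.91), or 52.5-fold. In the trained pair, FI versus VI, the log2 ratio was 3.54 (3.50 to 3.59) for Saa1 and 4.51 (4.43 to 4.59) for Saa2, or 11.7-fold and 22.8-fold. Ratios were ranked over the 12180 genes that reached 1 CPM in any library. Saa2 ranked 3rd and Saa1 5th from the top in the sedentary pair, and Saa2 2nd and Saa1 6th in the trained pair. The sum of both was 39.93 CPM (VS), 205.7 CPM (VI), 1468 CPM (FS) and 2967 CPM (FI), with fibril log2 ratios of 5.20 (5.11 to 5.30) and 3.85 (3.81 to 3.89). In all, 2 of the 4 genes were more than 2-fold higher in FS than in VS, where 3.6% of all genes were, and all 4 were more than 2-fold higher in FI than in VI, where 2.59% of all genes were. The 4 genes share 1 cluster and, in part, sequence, so they do not count as 4 independent cases.

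The 4 libraries allow a test only if the changes with fibrils and with training are taken to add up on the log scale, which leaves 1 residual degree of freedom. Genes whose response to training differs between vehicle and fibril livers get a large error in this model. In it, 3 of the 4 genes rose with fibril injection (edgeR's quasi-likelihood test, Benjamini-Hochberg adjusted p below 0.05 over 11760 genes), where 2.64% of all genes tested did. The rise of Saa2 was 5.08 on the log2 scale (SE 0.31, adjusted p = 0.00201) and that of Saa1 was 4.25 (SE 0.40, adjusted p = 0.0124), with the fibril library higher in both pairs. With both genes replaced by their sum, the rise was 4.51 (SE 0.36, adjusted p = 0.00611). Scaled to total counts, Saa1 and the sum no longer passed, with adjusted p = 0.0979 and 0.0584, while Saa2 passed under all 8 alternatives. As a measure for the gene lists below, 2482 of the 11760 genes had an unadjusted p below 0.05 for fibrils and 1710 for training. Genes called in either direction numbered 540 for fibrils and 157 for training in edgeR, 470 and 182 in DESeq2, and 688 and 228 in limma-voom.

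Training alone also went with more of both transcripts. In vehicle livers, VI exceeded VS by a log2 ratio of 2.37 (2.25 to 2.48) for Saa1 and 2.36 (2.16 to 2.57) for Saa2, 5.16-fold and 5.12-fold. They ranked 17th and 18th of the 12180 genes by rise. In fibril livers, FI exceeded FS by 0.93 (0.91 to 0.95) for Saa1 and 1.15 (1.12 to 1.18) for Saa2, and the sum differed by 1.01 (0.997 to 1.03), close to 2-fold. Thus 2 of the 4 genes, Saa1 and Saa2, were more than 2-fold higher in VI than in VS, where 1.54% of all genes were. In FI versus FS these were Saa2 and Saa3, where 1.75% of all genes were. In the additive model, 1 of the 4 genes rose with training, where 0.672% of all genes tested did. This was Saa2, with 1.70 (SE 0.27, adjusted p = 0.0443), and its call was lost under 5 of 8 alternatives, with an adjusted p of up to 0.193. Saa1 did not pass, with 1.63 (SE 0.36, adjusted p = 0.158), nor did the sum, with 1.68 (SE 0.32, adjusted p = 0.098). Saa1 and the sum each passed under 3 of 8 alternatives, namely without robust estimation, with limma-voom and with no filter. Both training ratios of Saa1, Saa2 and the sum were above 0 in this comparison of single pools.

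**Figure D2:**
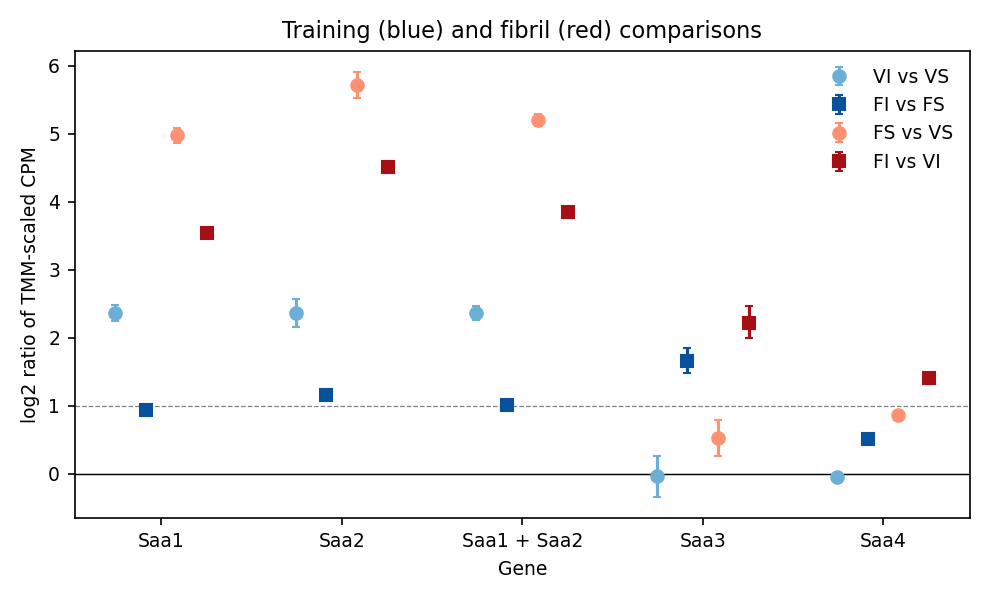
Log2 ratios of TMM-scaled CPM for each gene and for the sum of Saa1 and Saa2, with training comparisons in blue and fibril comparisons in red, and exact 95% counting intervals as bars. The dashed line marks 2-fold. Saa1 and Saa2 show the largest ratios in FS versus VS (4.98 and 5.71), whereas Saa3 and Saa4 lie near 0 in VI versus VS and have their largest ratios in FI versus VI (2.22 and 1.41).

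On the log scale, the training difference of Saa1 and Saa2 was smaller in fibril than in vehicle livers. The log2 ratio FI versus FS minus the log2 ratio VI versus VS was −1.43 (−1.55 to −1.32) for Saa1 and −1.20 (−1.41 to −1.0004) for Saa2, and both lay below −1, where 2.98% of all genes did. In absolute terms the order was the opposite. Training went with 124.7 CPM more Saa1 in vehicle livers and 857.7 CPM more in fibril livers, and with 41.11 and 640.7 CPM more Saa2. If the single differences of VI and FS from VS are added, FI would hold 1070 CPM of Saa1 and 564.4 CPM of Saa2, and the observed levels were 1.69-fold and 2.06-fold above this. If they are multiplied, FI would hold 4876 CPM of Saa1 and 2685 CPM of Saa2, and the observed levels were 0.370 and 0.434 of this. FI thus lay above the sum and below the product of the single differences. These differences were not tested, because the model uses its only residual degree of freedom for them.

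The balance of Saa1 and Saa2 differed between vehicle and fibril livers. Saa2 gave 24.9% (22.3 to 27.8, Wilson interval) of the reads of both genes in VS and 24.8% (23.6 to 26.0) in VI. In FS it gave 35.6% (35.2 to 36.1) and in FI 39.2% (38.9 to 39.6). The share was within counting error between the vehicle libraries, and both fibril libraries lay above them without overlap of intervals. Per transcript length, Saa1 exceeded Saa2 by 3.04-fold (VS), 3.05-fold (VI), 1.82-fold (FS) and 1.56-fold (FI). Reads that fit both copies, as in the capital-free stretches of the exon shown above, could move this share by an amount that was not tested.

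Saa3, the inducible form known from macrophages and adipose tissue, stood out in FI alone. VS held 185 reads of it, VI 186, FS 333 and FI 862, which is 7.834 CPM (6.746 to 9.048), 7.635 CPM (6.577 to 8.815), 11.28 CPM (10.1 to 12.56) and 35.63 CPM (33.29 to 38.09). VS and VI did not differ beyond counting error, FS lay slightly above them, and FI lay more than 3-fold above FS. With training, the log2 ratio was −0.04 (−0.34 to 0.26) between the vehicle livers and 1.66 (1.48 to 1.85) between the fibril livers. With fibrils, it was 0.52 (0.26 to 0.79) between the sedentary livers and 2.22 (1.99 to 2.46) between the trained livers. The log2 ratio with training was thus larger by 1.70 (1.35 to 2.04) when fibrils had been injected, a difference above 1, where 2.84% of all genes lay. FI held 3.22-fold the level to which the single differences of VI and FS add up, and 3.24-fold the level to which they multiply. In the additive model Saa3 did not pass, with 1.40 for fibrils (SE 0.43, adjusted p = 0.167) and 0.90 for training (SE 0.43, adjusted p = 0.439). For fibrils it passed with limma-voom (adjusted p = 0.0286) and under none of the other 7 alternatives, where the adjusted p went up to 0.54.

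Markers of cells that can make Saa3 were set beside these values. The 7 Kupffer cell markers summed to 256.2 CPM (VS), 309.5 CPM (VI), 389.4 CPM (FS) and 379 CPM (FI), and none was at 0. Of these 7 markers, 2 rose with fibrils, where 2.64% of all genes tested did, though none by DESeq2, and none passed for training (edgeR's quasi-likelihood test, 1 of 7 at an unadjusted p below 0.05, none by DESeq2 or limma-voom). For training, 1710 of all 11760 genes tested had such an unadjusted p. The 6 monocyte markers summed to 39.59 CPM, 33.74 CPM, 73.98 CPM and 56.55 CPM in the same order, nearly all of it Lyz2, and Chil3 was at 0 in VS and VI. Of the 2 monocyte markers tested, 1 rose with fibrils, where 2.64% of all genes tested did, and 1 did by DESeq2 and by limma-voom. In edgeR's quasi-likelihood test this was Lyz2, by 0.82 (adjusted p = 0.0112). The 8 neutrophil markers summed to between 2.033 CPM in VS and 5.284 CPM in FS, with between 1 and 4 of them at 0. Among the 6 adipocyte markers, the sum was 5.336 CPM (VS), 19.83 CPM (VI), 7.249 CPM (FS) and 29.1 CPM (FI), almost all of it Plin4, and Adipoq had 1 read in FS and none elsewhere. Plin4 was the only adipocyte marker tested. It rose with training by 1.95 (edgeR's quasi-likelihood test, adjusted p = 0.00183), where 0.672% of all genes tested rose, and also by DESeq2 and limma-voom. The adipocyte sum, which is close to Plin4 alone, was higher in VI than in VS and in FI than in FS, and Saa3 was higher only in FI than in FS. The Kupffer cell and monocyte sums were lower in FI than in FS, but single markers of both lists went both ways. The median log2 ratio of the Kupffer cell markers in FI versus FS was 0.10. The part of these cells in the Saa3 values was not tested.

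Saa4, the constitutive liver form, was the most abundant member in VS and varied least. VS held 8588 reads of it, VI 8568, FS 19462 and FI 22608, which is 363.7 CPM (356 to 371.4), 351.7 CPM (344.3 to 359.2), 659.2 CPM (650 to 668.5) and 934.6 CPM (922.4 to 946.8). The vehicle libraries were close to each other, and both fibril libraries lay above them. With fibrils the log2 ratio was 0.86 (0.82 to 0.89) between sedentary and 1.41 (1.37 to 1.45) between trained livers, or 1.81-fold and 2.66-fold. With training it was −0.05 (−0.09 to −0.00) in vehicle livers and 0.50 (0.48 to 0.53) in fibril livers. In the additive model Saa4 rose with fibrils by 1.13 (SE 0.16, adjusted p = 0.0118), higher in both pairs, and this held under all 8 alternatives. Its change with training was 0.23 (SE 0.16, adjusted p = 0.571). FI held 1.44-fold the level to which the single differences add up and 1.47-fold that to which they multiply.

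Levels of different genes were compared per length, in FPKM, the authors' count scaled by gene length and library total. In VS, Saa4 came first with 181.8 FPKM, followed by Saa1 with 49.92, Saa2 with 16.43 and Saa3 with 14.86, and only Saa2 and Saa3 overlapped in their counting intervals. In VI, Saa1 came first with 254 FPKM, ahead of Saa4 with 173.4, Saa2 with 83.16 and Saa3 with 14.28. In FS and FI the order was Saa1, Saa2, Saa4 and Saa3, with 1601, 878.9, 335.2 and 21.76 FPKM in FS and 2907, 1861, 452.4 and 65.45 FPKM in FI. No neighbours in these 3 orders overlapped. Taken as a whole, the 4 genes reached 263 FPKM (VS), 524.8 FPKM (VI), 2837 FPKM (FS) and 5286 FPKM (FI). The constitutive Saa4 made up 69.1% of this (VS), 33.0% (VI), 11.8% (FS) and 8.56% (FI). Saa1 and Saa2 together made up 25.2%, 64.2%, 87.4% and 90.2% in the same order. The vehicle trained liver thus lay between the sedentary vehicle liver and both fibril livers in the make-up of these transcripts.

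**Figure D3:**
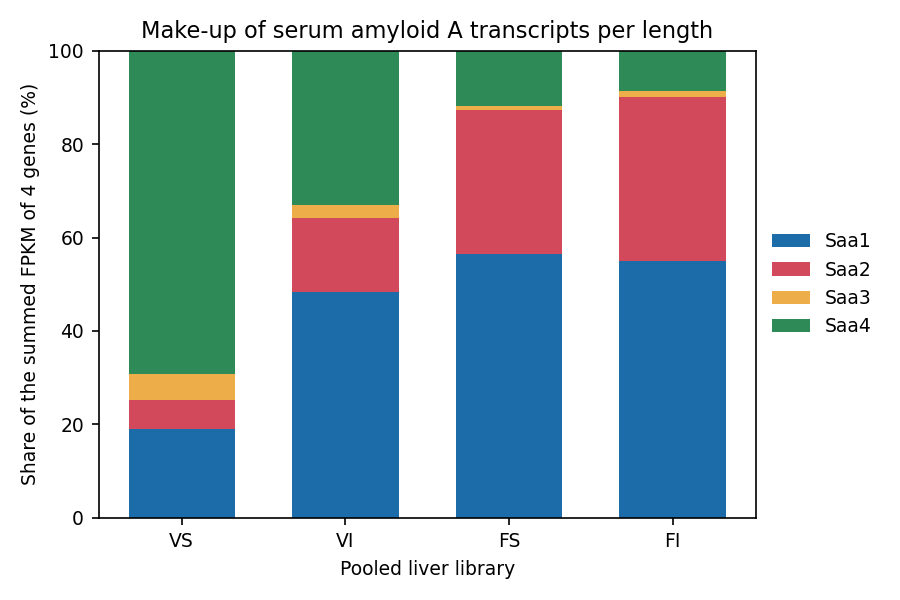
Share of each gene in the summed FPKM of the 4 serum amyloid A genes (percent), for each pooled library. Saa4 takes 69.1% in VS and 8.56% in FI, while Saa1 and Saa2 together take 25.2% in VS and 90.2% in FI.

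The stretch of 250 bases before the start of each gene was read from RefSeq (GRCm38.p6), where all 4 genes were found. The windows are shown because Saa1 and Saa2 had log2 ratios above 2 in VI versus VS, whereas those of Saa3 and Saa4 were close to 0. Windows were searched on both strands for TTGCNNAA (C/EBP), for GGG and CC with any 5 bases between them (NF-κB), TTCNNNGAA (STAT) and the core promoter box TATAAA, and matches are in capitals. Sequences run 5′ to 3′ on the strand of the gene and end at the base before its RefSeq start, from which positions are counted. For Saa4 this start lies farther upstream than the end of the gene in the deposited annotation, and for the other 3 genes the starts are the same.
Saa1 (chr7:46742981-46743230, minus strand): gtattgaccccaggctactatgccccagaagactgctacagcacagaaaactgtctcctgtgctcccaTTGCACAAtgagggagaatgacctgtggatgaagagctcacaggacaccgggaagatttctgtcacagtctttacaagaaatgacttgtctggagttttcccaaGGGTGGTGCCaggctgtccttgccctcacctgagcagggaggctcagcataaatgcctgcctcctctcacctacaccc
Saa2 (chr7:46751583-46751832, plus strand): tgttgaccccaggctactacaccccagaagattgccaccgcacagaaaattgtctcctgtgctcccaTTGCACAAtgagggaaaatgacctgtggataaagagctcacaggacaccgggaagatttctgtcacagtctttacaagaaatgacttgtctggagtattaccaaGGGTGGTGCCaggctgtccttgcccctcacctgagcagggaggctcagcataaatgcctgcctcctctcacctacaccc
Saa3 (chr7:46715677-46715926, minus strand): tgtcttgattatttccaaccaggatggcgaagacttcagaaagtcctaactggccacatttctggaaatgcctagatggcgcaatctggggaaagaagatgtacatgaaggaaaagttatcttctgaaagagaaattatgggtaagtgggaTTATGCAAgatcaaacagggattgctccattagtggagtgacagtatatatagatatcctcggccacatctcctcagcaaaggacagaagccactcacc
Saa4 (chr7:46732604-46732853, minus strand): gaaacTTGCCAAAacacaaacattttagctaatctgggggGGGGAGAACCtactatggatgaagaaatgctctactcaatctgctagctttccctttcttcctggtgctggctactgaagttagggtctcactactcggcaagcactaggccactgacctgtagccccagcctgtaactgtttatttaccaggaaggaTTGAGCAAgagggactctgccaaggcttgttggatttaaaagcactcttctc

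The windows of Saa1 and Saa2 were identical in 94.82% of aligned positions, against between 46.8% and 52.41% for the other pairs. Each of them held the C/EBP letters and the NF-κB letters once, with the first base of the match 182 and 78 bases before the start in Saa1 and 183 and 79 bases before it in Saa2. Saa3 held the C/EBP letters once, 99 bases before its RefSeq start, and no match of the NF-κB letters. Saa4 held the C/EBP letters at 245 and 52 bases and the NF-κB letters at 210 bases before its start. No matches overlapped. The STAT letters and TATAAA were found in none of the 4 windows. Of 32851 windows of the same length, 9.56% held the C/EBP letters, 45.8% the NF-κB letters, 7.02% the STAT letters and 12.4% TATAAA. A match is a description of the sequence and not evidence of binding.

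Among genes upstream of the acute phase response, some receptors and transcription factors were called, and none of the ligands tested was. Of 10 ligands that induce serum amyloid A, 4 reached the filter and none passed for fibrils or for training (edgeR's quasi-likelihood test, none at an unadjusted p below 0.05, and none by DESeq2 or limma-voom). With 4 genes this says little, since only 2.64% of all genes tested rose with fibrils and 0.672% with training. Il6, which encodes interleukin-6, had 1 read (VS), 0 (VI), 6 (FS) and 9 (FI), and a count of 0 allows up to 0.123 CPM in VI. Il1b had 45, 52, 74 and 73 reads in the same order. The reads of Il6 are too few to compare its level between groups. Among 10 cytokine receptors and JAK kinases, 2 rose with fibrils, where 2.64% of all genes tested did, and 1 with training, where 0.672% did. DESeq2 called 1 for each factor, and limma-voom called 2 and 1. Il1r1, the interleukin-1 receptor, had 42.98 (VS), 95.07 (VI), 117.7 (FS) and 177.3 CPM (FI), in the same order as Saa1 and Saa2. It rose with fibrils by 1.17 (adjusted p = 0.00857) and with training by 0.86 (adjusted p = 0.0438). Osmr, the oncostatin M receptor, rose with fibrils by 1.32 (adjusted p = 0.0336) from 1.99 to 4.674 CPM in sedentary and from 1.149 to 3.1 CPM in trained livers.

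Of 13 transcription factors that act on serum amyloid A promoters, 2 rose with fibrils, where 2.64% of all genes tested did, and none passed for training (3 at an unadjusted p below 0.05, and none by DESeq2 or limma-voom). Cebpd, which encodes the inducible C/EBPδ, had 8.512 (VS), 11.9 (VI), 19.61 (FS) and 26.79 CPM (FI) and rose with fibrils by 1.19 (adjusted p = 0.00711). Stat3 rose by 0.55 (adjusted p = 0.0435), from 133.8 to 210.3 CPM in sedentary and from 135.4 to 183.8 CPM in trained livers. Cebpa did not pass. The 6 feedback targets above the filter gave no call (4 at an unadjusted p below 0.05 for fibrils and 2 for training), 1 by limma-voom for fibrils and none by DESeq2. Such an unadjusted p was reached by 2482 of all 11760 genes tested for fibrils and by 1710 for training. Socs3, an inhibitor of cytokine signalling that STAT3 induces, had 9.528 (VS), 12.15 (VI), 27.4 (FS) and 15.25 CPM (FI). Its level was thus lower in FI than in FS, the reverse of the order of the 4 serum amyloid A genes. Bcl3 was also lower in FI than in FS, whereas the other feedback targets above the filter were higher. The median log2 ratio of the 6 targets in FI versus FS was 0.23.

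The positive acute phase list, which held no serum amyloid A gene, was higher in fibril livers as well. Of its 26 genes 25 reached the filter, and 15 were more than 2-fold higher in FS than in VS and 5 in FI than in VI, where 3.6% and 2.59% of all genes were. With training, 2 were more than 2-fold higher in VI than in VS and none in FI than in FS, where 1.54% and 1.75% of all genes were. The median log2 ratio of the list was 1.11 (FS versus VS), 0.62 (FI versus VI), 0.54 (VI versus VS) and 0.15 (FI versus FS), where the medians over all genes were 0.019, 0.010, 0.0035 and 0.0017. In the additive model, 13 of 25 rose with fibrils and none fell, where 2.64% of all genes tested rose, against 16 by DESeq2 and 19 by limma-voom. With training 1 rose, where 0.672% of all genes tested did, against 3 by DESeq2 and 3 by limma-voom. The tools also differed over all genes, with 540 called for fibrils in either direction by edgeR, 470 by DESeq2 and 688 by limma-voom. For training these were 157, 182 and 228. Lcn2, the iron-chelating lipocalin-2, had 6.352 (VS), 36.45 (VI), 366.8 (FS) and 549.1 CPM (FI) and rose with fibrils by 4.80 (adjusted p = 0.0444). Lrg1, a secreted leucine-rich glycoprotein, rose by 1.63 (adjusted p = 0.0084), with 229, 435.4, 916.7 and 1036 CPM. Orm2, an orosomucoid, had 9.697, 36.08, 149 and 97.39 CPM and did not pass (adjusted p = 0.225), nor did Apcs, which encodes serum amyloid P component, with 307.8, 583.9, 1090 and 797.7 CPM (adjusted p = 0.151). In contrast to all 4 serum amyloid A genes, Orm2 and Apcs were lower in FI than in FS. Of 8 negative acute phase genes, 2 fell with fibrils, as 1.96% of all genes tested did, Serpina6 (corticosteroid-binding globulin) by 0.98 (adjusted p = 0.0246) and Igfals by 0.66 (adjusted p = 0.0424), and Trf (transferrin) fell with training by 0.74 (adjusted p = 0.0384), as 0.663% of all genes tested did.

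Genes that handle the proteins once made were also counted. Of 9 receptors listed for serum amyloid A, 7 were tested, and 1 rose with fibrils, where 2.64% of all genes tested did, and 1 fell with training, where 0.663% did. DESeq2 gave the same counts, and limma-voom also called 1 receptor higher with training. Cd14 rose with fibrils by 1.96 (adjusted p = 0.00264), with 3.303 (VS), 5.336 (VI), 11.25 (FS) and 23.36 CPM (FI). Cd36, a scavenger receptor, fell with training by 1.15 (adjusted p = 0.0192), from 71.78 to 26.48 CPM in vehicle and from 40.95 to 22.53 CPM in fibril livers. Fpr2, a chemotactic receptor, had 0.5505, 0.6568, 1.287 and 1.943 CPM and did not pass for fibrils (adjusted p = 0.0856). None of 13 HDL genes passed for either factor (6 at an unadjusted p below 0.05 for fibrils and 1 for training, none by DESeq2, and 1 by limma-voom for fibrils). Apoa2, whose product forms the injected fibrils, had 8482 (VS), 6584 (VI), 5451 (FS) and 5627 CPM (FI) (adjusted p = 0.188 for fibrils). Apoa4 had 55.26, 109.4, 162.6 and 154.9 CPM (adjusted p = 0.0658 for fibrils). Of 6 proteases and amyloid cofactors none passed in edgeR (2 at an unadjusted p below 0.05 for fibrils and 1 for training), and 1 did for each factor in DESeq2 and in limma-voom. Over all 11760 genes tested, 2482 for fibrils and 1710 for training had such an unadjusted p. Ctsl, the protease cathepsin L, had 509.2, 1218, 1004 and 1512 CPM, with adjusted p = 0.0906 for fibrils and 0.0607 for training.

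Genes with the most similar profile were sought among the 9345 genes that reached 5 CPM in any library, by the Euclidean distance between log2 levels centred on each gene's mean over the 4 libraries. The 5 genes nearest to the sum of Saa1 and Saa2 were Lcn2 (distance 0.481), Ddit4 (0.940), Nnmt (1.05), 1 unnamed long non-coding RNA (1.32) and Adcy1 (1.42). Ddit4, an inhibitor of mTORC1, had 3.599 (VS), 15.11 (VI), 55.28 (FS) and 175 CPM (FI). Nnmt, nicotinamide N-methyltransferase, had 3.981, 20.93, 74.21 and 140.2 CPM. Adcy1, an adenylate cyclase, rested on 1 read in VS. Saa2 was nearer to Lcn2 (0.480) than to Saa1 (0.866), and Saa1 was nearer to Lcn2 (0.675) than to Saa2. For Saa3 the nearest genes were the chemokine gene Ccl6 (0.421), Ston1 (0.561) and the phosphatase gene Dusp1 (0.582), and Ccl6 had 7.411, 9.4, 11.72 and 29.35 CPM. For Saa4 they were Snx10 (0.164), the kinase gene Sgk1 (0.188) and the transcription factor gene Elk1 (0.204), and Sgk1 had 25.24, 27.79, 43.59 and 67.26 CPM. Saa3 and Saa4 lay 0.850 from each other. With Pearson's r over the 4 libraries in place of the distance, Lcn2 ranked 30th for the sum (r = 0.998), since r ignores the size of the differences, so these neighbours depend on the measure.

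**Figure D4:**
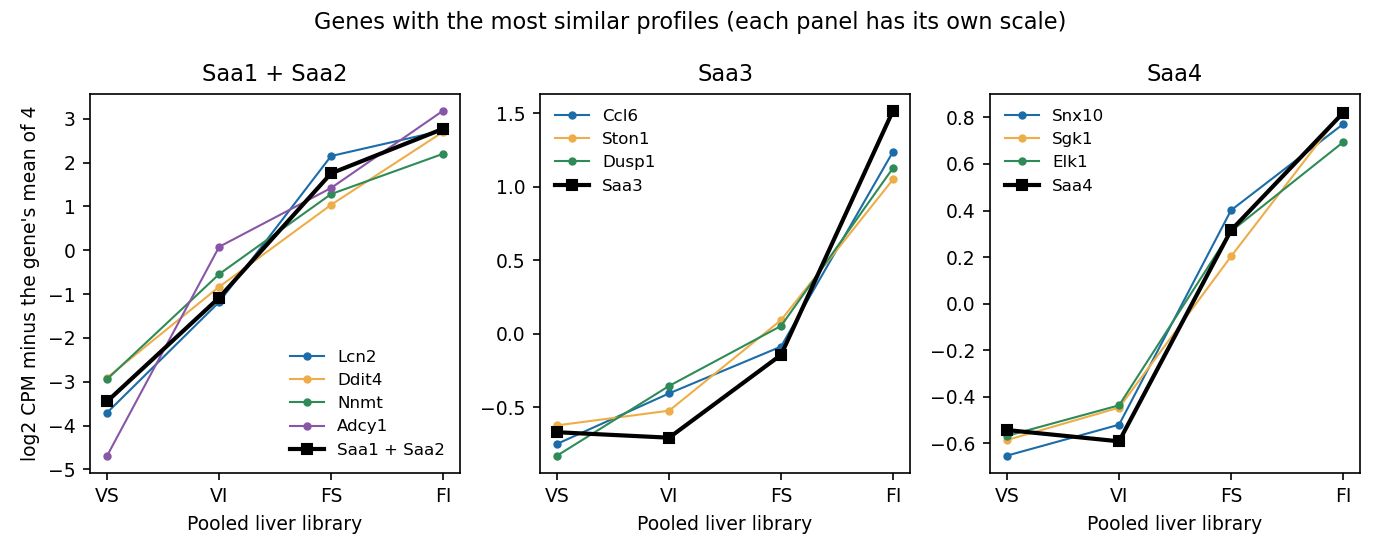
Log2 CPM minus the gene's mean over the 4 libraries, for the sum of Saa1 and Saa2, for Saa3 and for Saa4 (black squares) and the named genes with the most similar profiles (coloured points), each panel with its own scale. The unnamed long non-coding RNA is not drawn. Lcn2 follows the sum most closely (distance 0.481), Ccl6 follows Saa3 (0.421) and Snx10 follows Saa4 (0.164).

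The 4 tested genes around the cluster had smaller fibril differences than Saa1, Saa2 and Saa4, while Ldha exceeded Saa3 in FS versus VS, with log2 ratios of 0.63 and 0.52. Within 100 kb of it, 6 other genes are listed. Tph1 had no read in any library, and 1 predicted gene had between 2 and 13 reads. Saal1, next to Saa3, had 5.59 (VS), 4.597 (VI), 6.097 (FS) and 6.242 CPM (FI), and Hps5, next to Saa2, had 16.98, 12.19, 14.43 and 13.64 CPM. Gtf2h1 had between 29.33 and 38.91 CPM, and Ldha, which encodes a lactate dehydrogenase subunit, had 726.3, 658.8, 1121 and 864.2 CPM. Of the 4 genes tested, none passed for fibrils or training in edgeR, with adjusted p between 0.079 for Ldha and 0.912 for Hps5 for fibrils (1 at an unadjusted p below 0.05 for fibrils, none for training, and none by DESeq2 or limma-voom). Each of the 4 had a log2 ratio below 0.63 in FS versus VS and below 0.44 in FI versus VI.

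**Figure D5:**
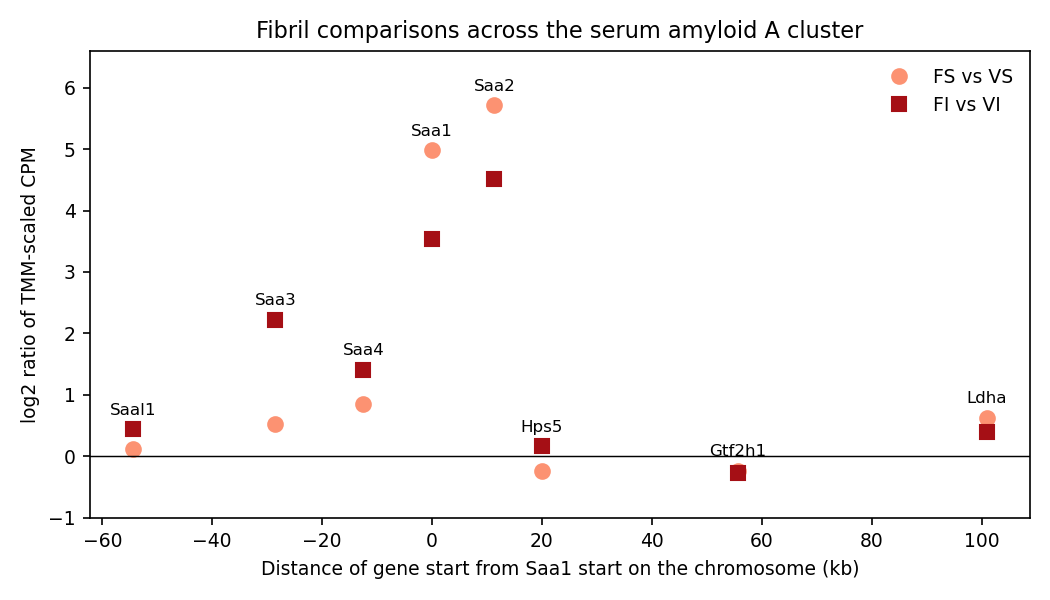
Log2 ratios of TMM-scaled CPM with fibrils in sedentary (FS versus VS, circles) and trained livers (FI versus VI, squares), plotted against the distance of each gene's start from that of Saa1 along chromosome 7 in kb. Tph1 and 1 predicted gene are left out for low counts. The flanking genes Saal1, Hps5, Gtf2h1 and Ldha lie between −0.26 and 0.63, below Saa1 and Saa2 in both comparisons.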

How the data were processed

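Liver RNA of 4 pools of 4 mice each was sequenced. The authors deposited read counts per gene without normalization, and FPKM values made from them, which were recomputed from count, gene length and library total to within 0.1%. The submitters' processing notes name fastp 0.23.2, STAR 2.5, HTSeq 0.6.1 and mm10, with no settings. The authors tested the counts with edgeR; the sources used here do not give the dispersion.

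The tools were edgeR 4.0.16, DESeq2 1.42.0 and limma 3.58.1 under R 4.3.3 (sequences with Python 3.11.15 and Biopython 1.88, figures with matplotlib 3.10.9). Log2 ratios of TMM-scaled CPM used a prior of 0.5 counts and exact conditional binomial (Clopper-Pearson) intervals at 95%, without a test. Both comparisons with VS rest on that 1 library, as both comparisons of FI rest on FI. The additive model was a robust edgeR quasi-likelihood fit to the 11760 genes that reached 1 CPM in 2 or more libraries, adjusted after Benjamini and Hochberg. Exon and transcript sequences came from GENCODE M21. The text names the 4 members, the nearest profiles (5 for the sum, 3 each for Saa3 and Saa4), neighbours within 100 kb, and genes among the 4 of each list with the largest FS versus VS ratio. Il6, Trf, Lyz2, Chil3, Plin4 and Adipoq were named after their values were seen. The members and gene lists were chosen with earlier results of these data known.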

Additional observations from a re-analysis of the deposited data

Results flagged for a closer look

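Saa4 differed with training in opposite directions in vehicle and fibril livers. VI lay below VS by a log2 ratio of −0.05 (−0.09 to −0.00), whereas FI lay above FS by 0.50 (0.48 to 0.53), a difference of 0.55 (0.50 to 0.60). Both intervals cover counting error only, the vehicle ratio is close to 0, and the difference was not tested, since each group is 1 pooled library.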

How the results depend on the processing

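No paired analysis was possible because each group is 1 library. Every log2 ratio of the members kept its direction under all 8 alternatives and moved by at most 0.113. Scaled to total counts, or from FPKM with a pseudocount of 1 or 0.1, FI versus FS was 0.944, 0.943 and 0.943 for the sum of Saa1 and Saa2, no longer 2-fold, and 0.433, 0.431 and 0.432 for Saa4. Saa4 was 0.790 in FS versus VS with upper quartile scaling, and its training ratios differed by 0.4995 from FPKM with a pseudocount of 1. With total counts the fibril rise of the sum was 4.51 but did not pass (adjusted p = 0.0584). The training change of the sum passed at 1.68 without robust estimation, 1.79 with limma-voom and 1.67 with no filter (adjusted p = 0.0384, 0.0117 and 1.4e-08), and the fibril change of Saa3 passed at 1.51 with limma-voom (0.0286). Genes called with training numbered 157, and 241 with DESeq2 size factors, 276 with total counts, 91 with a filter of 5 CPM and 740 with none. Genes called with fibrils numbered 540, and 1519 with no filter. Genes beyond 2-fold numbered 419 in VI versus VS, 521 in FI versus FS, 706 in FS versus VS and 553 in FI versus VI. In the same order these were 1418, 1647, 2140 and 1702 beyond 1.5-fold, 144, 203, 353 and 229 with a filter of 5 CPM, and 4030, 4177, 4567 and 4197 with no filter. The causes of these shifts were not tested, except that fewer or more genes enter with another filter. With 1 pool per group, no value carries the spread between mice.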
